A study of Mus musculus with 11 samples.

Results

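Interferon-stimulated genes are the genes that cells switch on when an interferon binds its receptor. The liver counts of 33 of them were compared between mice treated with INT-767 and mice given vehicle. They were chosen by symbol, as interferon-induced effectors, RNA sensors and guanylate-binding proteins with their STAT and IRF regulators. They fill 34 rows of a table of 46603 genes, because *Gbp6* has 2 rows, and all 33 genes were tested. The second *Gbp6* row (ENSMUSG00000079362, a different gene in the GENCODE M21 annotation) held 1 count in all 11 mice and was not tested.

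The mice were male *ob/ob* mice, which lack leptin. They were 5 to 6 weeks old when the AMLN diet, a feed high in fat, cholesterol and fructose, began, and ate it for 15 weeks before treatment and throughout it. For 8 weeks 4 mice then received INT-767, a dual agonist of FXR and TGR5, once a day by mouth (10 mg/kg), and 7 mice received the vehicle alone. The missing leptin, the diet and a liver biopsy before treatment were shared by both groups, and no lean, chow-fed or interferon-treated liver was part of the comparison. Each library is the left lateral lobe of 1 mouse, so that all cell types of the liver are measured together and fewer cells of a type cannot be told apart from less RNA per cell.

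Type I interferons (the alphas and beta) bind IFNAR1 and IFNAR2, and the kinases JAK1 and TYK2 then activate a complex with STAT2 and IRF9 that binds a DNA element called ISRE. Type II interferon, which is interferon gamma from T and NK cells, binds IFNGR1 and IFNGR2 and acts through a different element called GAS. Many genes answer to both. Those best known as type I targets are 25 of the members, and those best known as targets of interferon gamma are 8, namely *Irf1*, *Gbp2*, *Gbp3*, *Gbp6*, *Gbp7*, *Igtp*, *Irgm1* and *Iigp1*.

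Promoter windows (250 bases before to 50 after a gene's start, RefSeq, GRCm38.p6) were at hand for 25 of the 33 genes. The ISRE core was searched as GAAANNGAAA or, on the other strand, TTTCNNTTTC, and the GAS element as TTCNNNGAA, which reads the same on both strands. The ISRE core occurred in 16 of the 25 genes (64.0%) and in 3.44% of all 32851 windows, and GAS in 8 of the 25 (32.0%) and in 8.30% of all windows. Members were counted per gene and the background per window, and a gene with several windows has more chances of a match, so that these shares are unlike measures. Of type I genes 11 of 19 held the ISRE core and 5 of 19 GAS, and of type II genes 5 of 6 and 3 of 6. The 150 bases before the start are shown, 5′ to 3′, for 3 type I genes (*Isg15*, *Ifit1*, *Bst2*) and 3 type II genes (*Gbp7*, *Igtp*, *Irf1*), because they show the elements singly, repeated and together. Capitals mark the matches.
Isg15 (chr4:156200819-156200968, - strand): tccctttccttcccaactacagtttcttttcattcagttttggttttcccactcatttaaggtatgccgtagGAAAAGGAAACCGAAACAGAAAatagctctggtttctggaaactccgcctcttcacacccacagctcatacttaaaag
Ifit1 (chr19:34640739-34640888, + strand): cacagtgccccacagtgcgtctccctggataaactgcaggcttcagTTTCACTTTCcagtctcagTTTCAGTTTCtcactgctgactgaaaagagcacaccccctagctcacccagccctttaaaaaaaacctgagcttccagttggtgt
Bst2 (chr8:71537473-71537622, - strand): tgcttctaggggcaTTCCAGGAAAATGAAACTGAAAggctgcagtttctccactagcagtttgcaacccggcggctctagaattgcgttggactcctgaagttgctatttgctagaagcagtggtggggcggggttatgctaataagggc
Gbp7 (chr3:142530186-142530335, + strand): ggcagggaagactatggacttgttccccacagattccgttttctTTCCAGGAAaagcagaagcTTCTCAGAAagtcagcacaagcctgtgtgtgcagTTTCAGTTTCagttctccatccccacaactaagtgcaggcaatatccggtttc
Igtp (chr11:58199406-58199555, + strand): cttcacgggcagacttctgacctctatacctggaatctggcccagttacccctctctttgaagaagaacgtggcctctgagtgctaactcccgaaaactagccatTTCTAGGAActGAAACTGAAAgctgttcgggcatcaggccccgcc
Irf1 (chr11:53769864-53770013, + strand): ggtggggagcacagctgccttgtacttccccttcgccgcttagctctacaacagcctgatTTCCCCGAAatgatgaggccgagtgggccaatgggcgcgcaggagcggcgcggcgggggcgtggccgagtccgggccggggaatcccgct
*Isg15* holds 3 overlapping ISRE cores and *Ifit1* 2 separate ones. *Gbp7* holds 2 GAS matches followed by an ISRE core, *Igtp* has a GAS match just before its ISRE core, and *Irf1* has GAS alone. In *Bst2* the GAS match overlaps the first of 2 ISRE cores. In *Ifih1* the match to the ISRE core, GAAACAGAAA, begins at base 33 after the start, counted from 1 at the start itself. A match is a run of letters and no evidence of binding.

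Total counts ranged from 7381211 to 16022459 per mouse, and a member gathered between 295 counts (*Gbp6*) and 25572 (*Iigp1*) over the 11 mice. Levels are given as CPM, TMM-scaled counts relative to the size of the library. The libraries also differed within the groups. The median deviation from the mean library of genes with short transcripts (up to 2548 bases) minus that of genes with long ones (over 4204 bases) was above 0 in 4 libraries, at log2 values of 0.21 in vehicle 1, 0.18 in vehicle 7, 0.48 in INT-767 2 and 0.61 in INT-767 4. In the other 7 it lay between -0.42 and -0.14 (vehicle 2 to 6), at -0.15 (INT-767 1) and at -0.07 (INT-767 3). Mitochondrial transcripts took 6.63%, 5.37%, 7.80% and 7.53% of the reads of these 4 libraries, against 3.89% to 4.99% in vehicle 2 to 6, 6.11% in INT-767 1 and 5.35% in INT-767 3. The trait was thus raised in 2 of 4 treated and 2 of 7 vehicle libraries, with the highest values in treated ones, and all treated mice had a higher mitochondrial share than vehicle 2 to 6. Across genes, which are not independent replicates, the log2 fold changes correlated with transcript length at a Spearman's rho of -0.24 and with GC content at -0.3 (13835 genes). Counts of calls are therefore also given for the other 5 vehicle and 2 INT-767-treated mice alone, a choice made after seeing the data. The groups are not balanced in the trait among these mice either, since INT-767 3 has the highest value of the 7. Calls among them are thus not free of it.

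The interferon-stimulated genes shared no direction in INT-767-treated livers. *Ifih1*, which encodes the RNA sensor MDA5, and *Gbp7*, which encodes a guanylate-binding protein, rose by 0.86 and 0.76 on the log2 scale, and *Oas2*, which encodes an RNA-activated 2′-5′-oligoadenylate synthetase, fell by 1.99. The other 30 members did not pass the test. Thus 2 of 33 were called higher and 1 lower by edgeR's quasi-likelihood test at an adjusted *p* under 0.05 (Benjamini-Hochberg over all 13880 tested genes). The share called, 9.09%, lay near the 9.72% of all tested genes (5.04% higher and 4.68% lower), and is no result about these genes. The median log2 fold change was 0.00 over the 33 members and -0.01 over all tested genes, and 17 of 33 lay above 0.

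The 3 calls did not hold in every setting. *Gbp7* was called in 16 and *Ifih1* in 13 of 22 alternative fits, and *Oas2* in 15 of the 21 in which it was tested. In the 5 vehicle and 2 INT-767-treated mice without a raised short-to-long difference, *Ifih1*, *Gbp7* and *Oas2* were again called, and *Ifit1* and *Iigp1* were called higher as well. These are 5 of 33 members (15.2%), where 1735 of all 14363 genes tested in these mice (12.1%; 5.96% higher and 6.12% lower) were called. With scaling by library size only, which lowers the median of all genes to -0.22 and so takes from every positive fold change, *Ifih1* and *Gbp7* were at 0.64 and 0.54 and not called, and *Oas2*, *Oasl2* and *Bst2* were called lower. Without INT-767 mouse 2 or without vehicle mouse 6 no member was called.

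**Figure D1:**
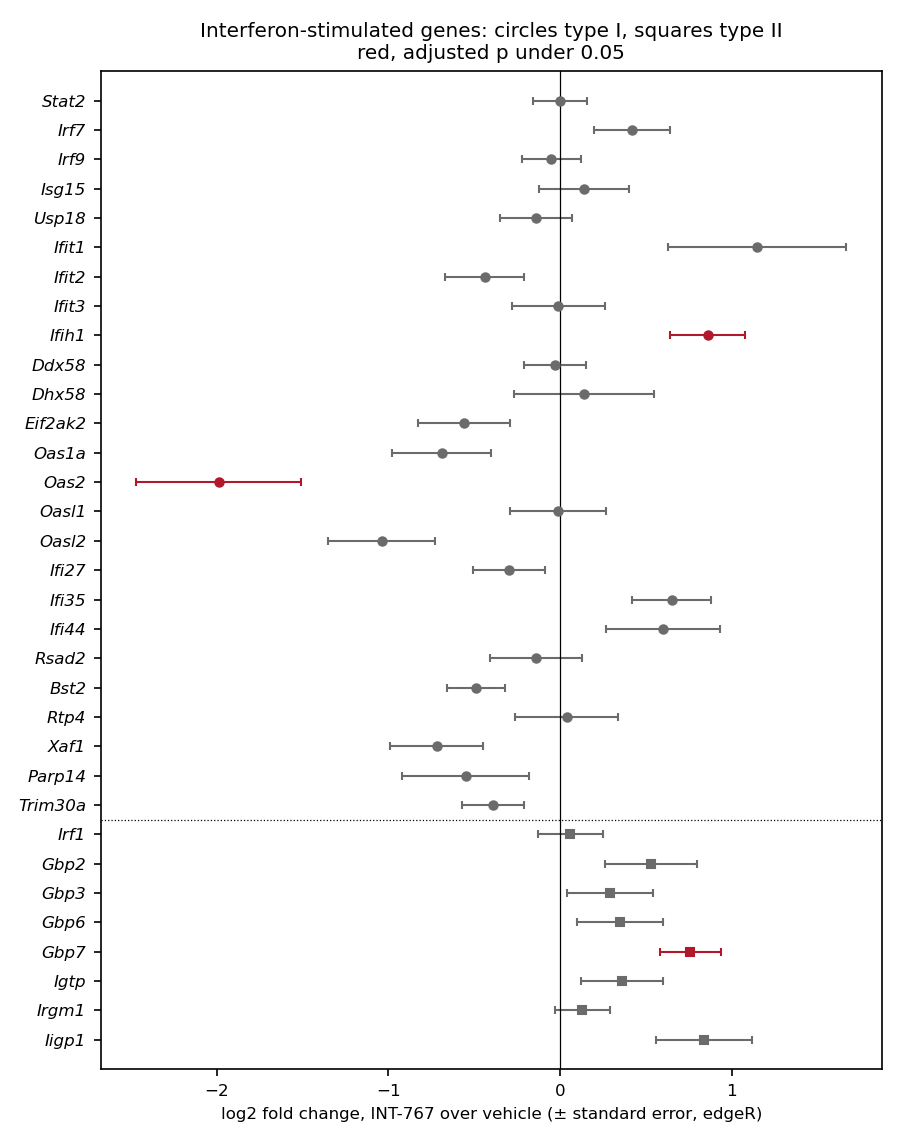
Log2 fold change of each of the 33 genes, INT-767 over vehicle, with its standard error from edgeR (7 and 4 mice), with the 25 type I genes as circles above the dotted line and the 8 type II genes as squares below it. *Ifih1*, *Oas2* and *Gbp7* passed an adjusted *p* of 0.05 (red), and all 8 type II genes lie right of 0, of which *Irf1* turns negative in 8 and *Irgm1* in 2 of the 22 alternative fits.

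Of the 3 RNA sensors 1 (33.3%) was called higher, where 5.04% of all tested genes were. Differences between the sensors were not tested. MDA5, the product of *Ifih1* (ENSMUSG00000026896, chromosome 2 from 62595798 to 62646255, GRCm38), binds long double-stranded RNA and signals through MAVS. Its levels in vehicle mice 1 to 7 were 68.5, 42.2, 33, 33.4, 35.8, 34.0 and 53.4 CPM, and in INT-767-treated mice 1 to 4 they were 65.9, 91.6, 65.6 and 87.4 CPM. The treated mice lay above 6 of the 7 vehicle mice, and vehicle 1 fell among them. The means were 42.9 ± 13.4 (SD, n = 7) and 77.6 ± 13.8 (SD, n = 4), and the difference on the log2 scale was 0.86 (standard error 0.22, edgeR adjusted *p* = 0.0301). In both groups the highest levels were in libraries with a raised short-to-long difference, and between the mice without one the log2 fold change was 0.89 (edgeR adjusted *p* = 0.00228). The adjusted *p* of *Ifih1* from edgeR rose to 0.0566, 0.058, 0.0635 and 0.0658 without vehicle 3, 4, 5 and 6, to 0.121 without INT-767 2 and to 0.066 without INT-767 4.

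*Ddx58* encodes RIG-I, the sensor of RNA ends with a triphosphate. It averaged 25.5 ± 2.90 CPM in vehicle mice (SD, n = 7) against 25.0 ± 6.63 in treated mice (SD, n = 4), and its log2 fold change was -0.03. *Dhx58* encodes LGP2, a relative of both sensors without their signalling domain, and its log2 fold change was 0.14 with a standard error of 0.41. Vehicle mouse 3 alone held 30.5 CPM of *Dhx58*, and the other vehicle mice between 7.92 and 14.8. Without this mouse the log2 fold change of *Dhx58* was 0.51, and over the 22 alternative fits it ran from -0.54 to 0.51. Neither gene was called, and 4.31% of the exon bases of *Dhx58* lie opposite exons of another gene.

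The oligoadenylate synthetases, their relatives and the kinase PKR had a median log2 fold change of -0.69 over 5 genes, of which 1 was called, where 9.72% of all tested genes were (4.68% lower). *Oas2* (ENSMUSG00000032690, chromosome 5 from 120730333 to 120749853) encodes an enzyme whose product activates RNase L, which degrades RNA. Its levels in vehicle mice 1 to 7 were 3.42, 2.35, 4.99, 3.74, 4.87, 6.25 and 2.16 CPM, and in INT-767-treated mice 1 to 4 they were 1.84, 0.415, 1.27 and 0.3 CPM. All treated mice lay below all vehicle mice. Groups did not overlap in 7.51% of all tested genes, with the treated mice lower in 3.65% and higher in 3.87%, and for 2 of the 33 members, *Oas2* and *Gbp7*. The log2 fold change was -1.99 (standard error 0.48, edgeR adjusted *p* = 0.0258), at means of 3.97 ± 1.49 (SD, n = 7) and 0.956 ± 0.732 (SD, n = 4). The depth behind it was small, with 27 to 77 counts per vehicle mouse and 29, 3, 9 and 4 counts in the treated mice. The lowest treated mice, INT-767 2 and 4, have a raised short-to-long difference, and between the mice without one the log2 fold change was -1.45 (edgeR adjusted *p* = 0.0366). Over the 21 alternative fits in which *Oas2* was tested, its log2 fold change ran from -2.66 to -1.45. Without vehicle 5 or 6 the edgeR adjusted *p* was 0.0512 or 0.0537, without INT-767 2 it was 0.100 and without INT-767 4 it was 0.0537.

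*Oasl2*, an oligoadenylate synthetase-like gene, averaged 12.7 ± 3.91 CPM in vehicle mice (SD, n = 7) against 6.22 ± 2.58 in treated mice (SD, n = 4), and its log2 fold change of -1.04 lay just outside the threshold (edgeR adjusted *p* = 0.0548). Its levels were 8.96, 5.67, 7.32 and 2.92 CPM in the 4 treated mice and no lower than 8.58 in the vehicle mice, so that the groups overlapped in 1 treated mouse. *Oas1a* had a log2 fold change of -0.69 (edgeR adjusted *p* = 0.129). Its count is uncertain, since 47.6% of its 75-base windows also occur in another gene, most often *Oas1g*. *Eif2ak2*, which encodes the kinase PKR that stops translation when it binds double-stranded RNA, was at -0.56 (edgeR adjusted *p* = 0.16), and *Oasl1*, a brake on the translation of *Irf7*, was at -0.01. Only the *Oas2* difference passed the test.

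**Figure D2:**
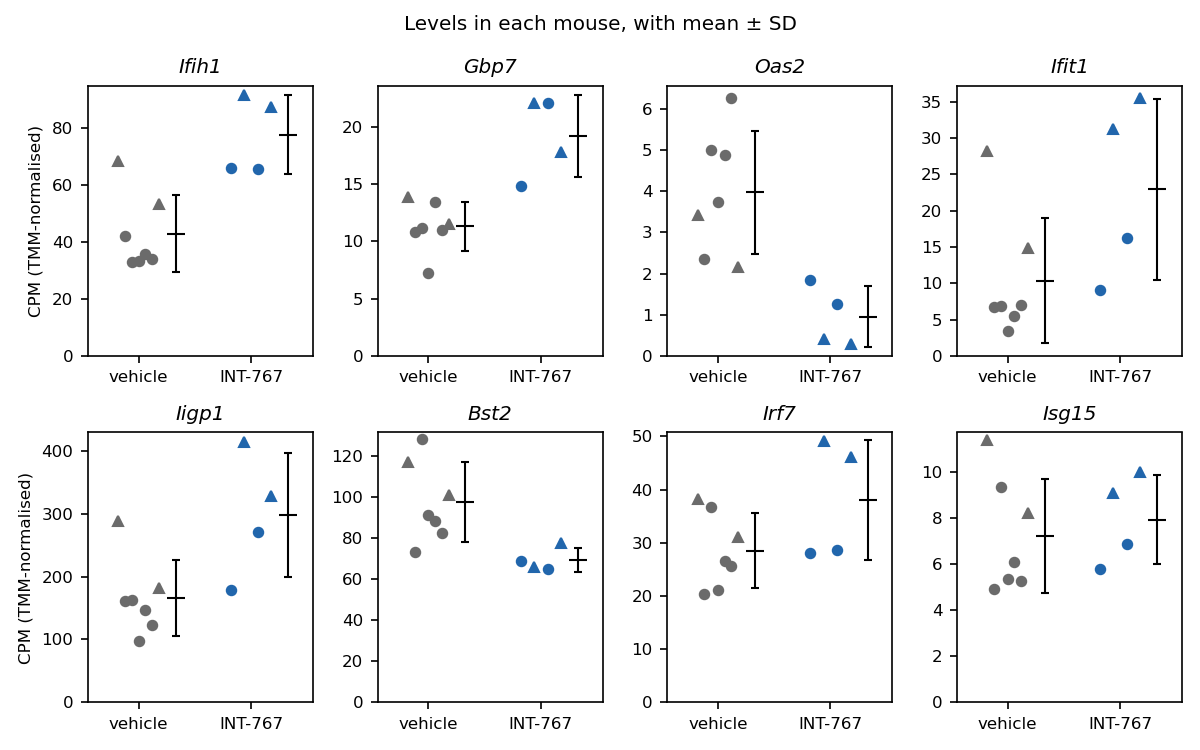
Levels of 8 members in each mouse in CPM, on axes from 0, with vehicle in grey and INT-767 in blue, the mean ± SD beside them and triangles for the 4 libraries with a raised short-to-long difference. The groups do not overlap for *Gbp7* and *Oas2*, and the triangles are the higher points of *Ifih1*, *Ifit1* and *Irf7* within the treated group.

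The regulators, through which interferon signals reach these genes, overlapped between the groups, and none of the 4 was called, where 9.72% of all tested genes were. *Stat2*, the transcription factor particular to type I and III signalling, averaged 50.5 ± 7.18 CPM in vehicle mice (SD, n = 7) against 50.6 ± 9.04 in treated mice (SD, n = 4), and its log2 fold change was 0.00 (standard error 0.16). In vehicle mice 1 to 7 it was 43.0, 50.9, 46.8, 49.3, 61.8, 58.4 and 43.6 CPM, and in treated mice 1 to 4 it was 61.4, 52.2, 49.3 and 39.5 CPM, which reaches from just below the lowest vehicle mouse to just below the highest. *Irf9*, the DNA-binding partner of STAT2, had 40.1, 28.4, 26.1, 22.6, 28.0, 28.7 and 31.8 CPM with vehicle and 22.0, 33.4, 28.7 and 29.3 with INT-767. Its log2 fold change was -0.05 (standard error 0.17).

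*Irf1*, an early target of interferon gamma, had 40.1, 36.4, 23.0, 28.2, 43.3, 29.7 and 39.9 CPM with vehicle and 28.1, 39.4, 34.6 and 41.4 with INT-767. The ranges overlapped fully, at a log2 fold change of 0.06 (standard error 0.19) that was below 0 in 8 of the 22 alternative fits. *Irf7*, which amplifies the production of interferon alpha, had 38.2, 20.4, 36.8, 21.2, 26.5, 25.6 and 31.0 CPM with vehicle and 28.0, 49.2, 28.7 and 46.2 with INT-767. INT-767 2 and 4 lay above every vehicle mouse and INT-767 1 and 3 within the vehicle range, and the log2 fold change was 0.42 (standard error 0.22, edgeR adjusted *p* = 0.206). None of the 4 regulators was called in any of the 22 alternative fits.

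ISG15 is a ubiquitin-like protein that is joined to other proteins, and USP18 removes it and also blocks IFNAR2. *Isg15* had a log2 fold change of 0.14 (standard error 0.26) and *Usp18* one of -0.14 (standard error 0.21), and neither was called. *Isg15* reached 11.4 CPM in vehicle 1 and 9.36 in vehicle 3, and 5.78, 9.12, 6.90 and 10.0 in the treated mice, all within the vehicle range of 4.91 to 11.4.

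The IFIT proteins bind foreign RNA and hinder its translation. *Ifit1* varied more among the vehicle mice than any other member, 8.39-fold from the lowest to the highest. It had 28.3, 6.74, 6.86, 3.37, 5.53, 7.06 and 14.8 CPM in vehicle mice 1 to 7 and 9.02, 31.2, 16.2 and 35.5 CPM in the treated mice. All treated mice lay above the vehicle median of 6.86, but vehicle 1 and 7 lay among them. Its log2 fold change of 1.15, the highest of the 33, did not pass the test (standard error 0.52, edgeR adjusted *p* = 0.145). It passed without vehicle 1 (edgeR adjusted *p* = 0.0232) and between the mice without a raised short-to-long difference. *Ifit2* was at -0.44 and *Ifit3* at -0.01, neither called, and 41.1% of the windows of *Ifit3* also occur in another gene, most often *Ifit3b*.

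The other 9 type I effectors held no called gene, where 9.72% of all tested genes were called, and their median log2 fold change was -0.30. *Bst2* encodes tetherin, which holds budding viruses on the cell surface. It had 117, 73.3, 128, 91.3, 88.4, 82.4 and 101 CPM with vehicle and 68.6, 65.6, 65.0 and 77.5 CPM with INT-767. Of the treated mice 3 lay below every vehicle mouse and INT-767 4 just above the lowest, with a log2 fold change of -0.49 (standard error 0.17, edgeR adjusted *p* = 0.073). *Xaf1*, a promoter of cell death, was at -0.72 (edgeR adjusted *p* = 0.0997), *Parp14*, an ADP-ribosyltransferase, at -0.55, *Trim30a* at -0.39, *Ifi27* at -0.30 and *Rsad2*, which encodes the antiviral enzyme viperin, at -0.14. *Rtp4* was at 0.04, *Ifi44* at 0.60 and *Ifi35* at 0.65 (edgeR adjusted *p* = 0.0857), and 16.8% of the exon bases of *Ifi35* lie opposite exons of another gene.

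Guanylate-binding proteins (GBPs) and immunity-related GTPases (IRGs) attack vacuoles that hold microbes and are textbook targets of interferon gamma. *Gbp7* (ENSMUSG00000040253, chromosome 3 from 142530342 to 142550149), whose promoter above holds both elements, was the member with the smallest *p*. It had 13.9, 10.8, 11.2, 7.24, 13.4, 11 and 11.5 CPM in vehicle mice 1 to 7 and 14.8, 22.1, 22.1 and 17.8 CPM in treated mice 1 to 4. All treated mice lay above all vehicle mice, although INT-767 1 did so narrowly. The means were 11.3 ± 2.17 (SD, n = 7) and 19.2 ± 3.56 (SD, n = 4), and the difference on the log2 scale was 0.76 (standard error 0.18, edgeR adjusted *p* = 0.0253). Its edgeR adjusted *p* was 0.0555 without vehicle 6, 0.111 without INT-767 2 and 0.0511 without INT-767 3, and 11.3% of its windows also occur in another gene.

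The other GBPs among the members had fold changes of the same sign and were not called. *Gbp2* was at 0.53 (standard error 0.27, edgeR adjusted *p* = 0.191), *Gbp6* at 0.35 and *Gbp3* at 0.29. The count of *Gbp6* is uncertain, since 67.3% of its windows also occur in another gene, most often the gene of the second row. None of the 4 GBPs among the members changed sign in any of the 22 alternative fits.

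Among the IRGs, *Iigp1* had 288, 161, 162, 98.2, 147, 123 and 182 CPM with vehicle and 179, 413, 271 and 328 with INT-767. INT-767 2 and 4 lay above every vehicle mouse, INT-767 3 above all but vehicle 1 and INT-767 1 within the vehicle range, and the log2 fold change of 0.84 stayed outside the threshold (standard error 0.28, edgeR adjusted *p* = 0.0692). Between the mice without a raised short-to-long difference it was called, at 0.71 (edgeR adjusted *p* = 0.0489). With the offset for GC content and length it was 0.44 (edgeR adjusted *p* = 0.114), and with each mouse left out in turn the edgeR adjusted *p* ran from 0.0163 to 0.247. *Igtp* was at 0.36 (edgeR adjusted *p* = 0.284) and *Irgm1* at 0.13, the latter turning to a negative value with scaling by library size only and without INT-767 mouse 2.

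**Figure D3:**
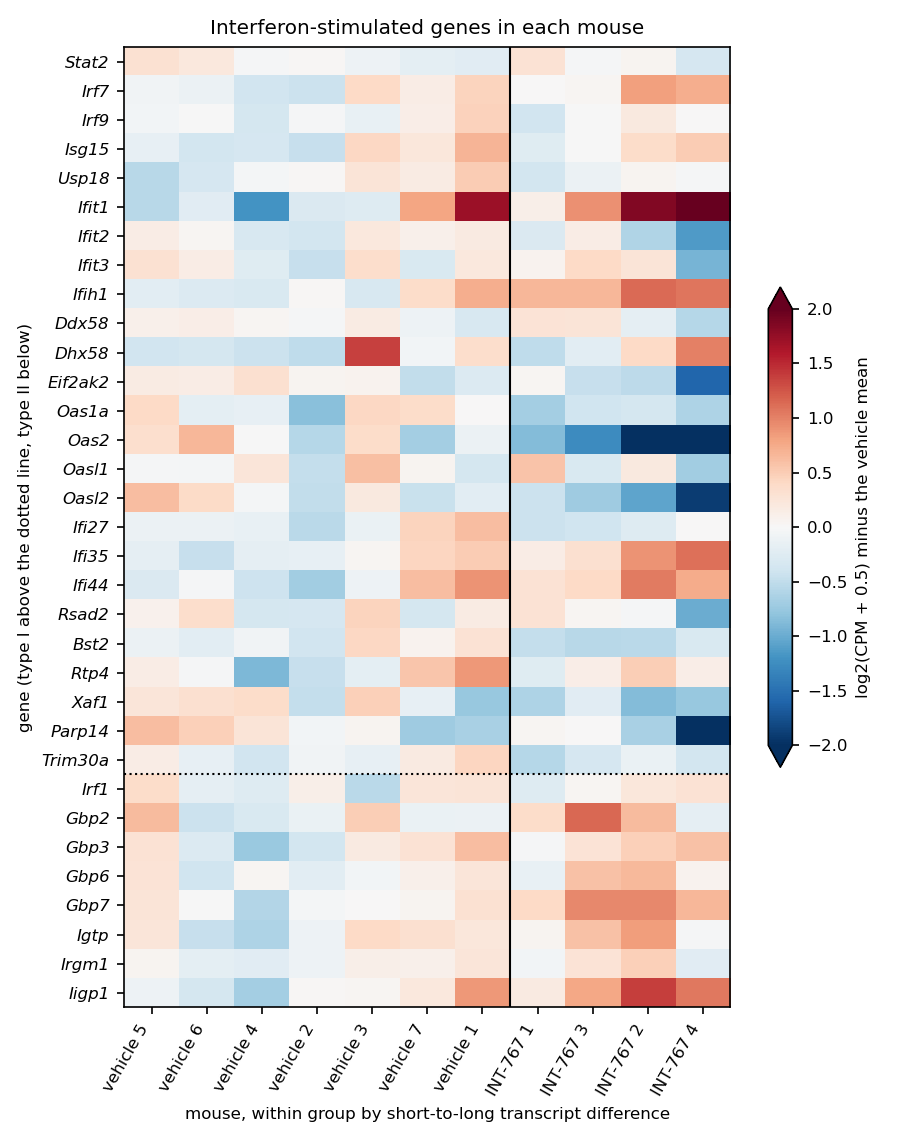
Level of each gene in each mouse as log2(CPM + 0.5) minus the mean of the 7 vehicle mice (colour scale, red higher and blue lower, ends at 2 on either side), with vehicle mice left of the line and each group ordered by its short-to-long difference. Within both groups *Ifit1*, *Ifih1*, *Ifi35* and *Ifi44* are higher, and *Parp14*, *Oasl2* and *Eif2ak2* lower on average, in the pair of mice at the right end.

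Type I and type II members were then set side by side. The median log2 fold change was -0.05 over the 25 type I members, with 9 above 0 and 16 below, and 0.35 over the 8 type II members, with all 8 above 0, where 49.4% of all tested genes lay above 0. Type I members ranged from -1.99 to 1.15 and type II members from 0.06 to 0.84, so that the type I genes spread over the type II range on both sides. Of type I members 2 of 25 (8.0%) were called and of type II members 1 of 8 (12.5%), where 9.72% of all tested genes were. Between the mice without a raised short-to-long difference these were 3 of 25 and 2 of 8 (25.0%), against 12.1% of all genes, and 7 of the 8 type II members lay above 0. With scaling by library size only the type II median was 0.14 and the type I median -0.27, against -0.22 for all genes, and *Irf1* and *Irgm1* were then below 0. *Irf1* was also below 0 with upper-quartile factors, with at least 10 counts in every mouse, without vehicle 3, vehicle 4, INT-767 2 or INT-767 4 and between the mice without a raised short-to-long difference, and *Irgm1* without INT-767 2. Over all alternatives the type II median stayed between 0.14 and 0.49. The difference between the types was not tested, since the members are not replicates of a condition.

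By mouse, the median of the type II members, as log2(CPM + 0.5) minus the vehicle mean, was 0.01, 0.65, 0.58 and 0.18 in treated mice 1 to 4 and ran from -0.45 (vehicle 4) to 0.27 (vehicle 5) with vehicle. INT-767 2 and 3 lay above every vehicle mouse, whereas INT-767 1 and 4 lay within their range. The type I median was -0.24, 0.06, -0.01 and -0.34 in the treated mice, inside the vehicle range of -0.38 to 0.29.

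**Figure D4:**
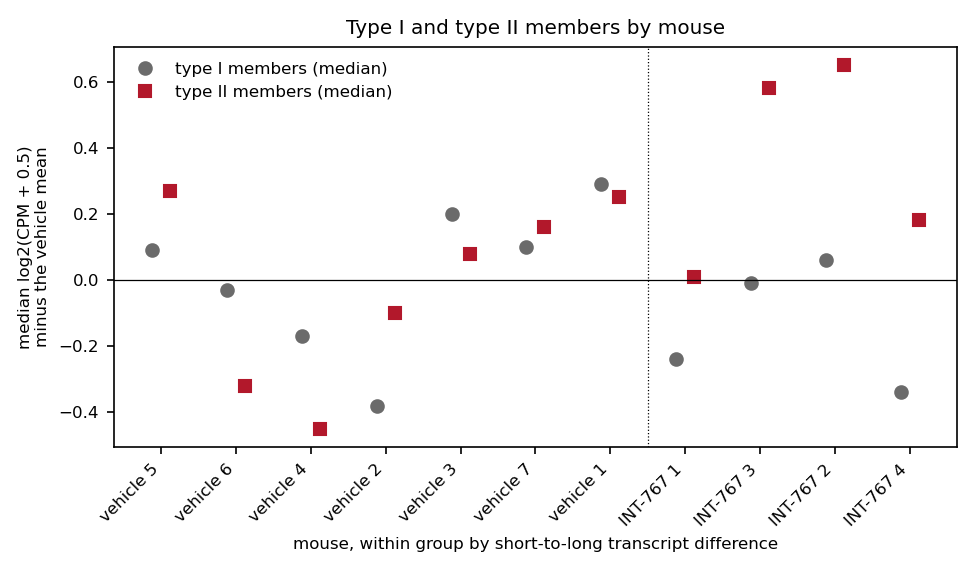
Median over the type I (grey circles) and type II members (red squares) of log2(CPM + 0.5) minus the vehicle mean, for each mouse. The type II medians of INT-767 3 and INT-767 2, at 0.58 and 0.65, lie above all vehicle mice, and the type I medians of the treated mice lie within the vehicle range.

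Per length of exon, as RPKM, *Bst2* was the most abundant member at 108 ± 21.6 RPKM (SD, n = 7) in vehicle mice. *Ifi27* followed at 33 ± 9.64 and *Iigp1* at 28.5 ± 10.4 RPKM, a pair that did not differ beyond its spread. *Igtp*, *Ifi35*, *Isg15*, *Irf1* and *Stat2* lay between 12.5 and 8.53 RPKM, and *Oas2* (0.892), *Ifi44* (0.618) and *Gbp6* (0.372) were at the low end. Of the 32 pairs of neighbours in this order only 3 differed by more than the larger of their SDs, namely *Bst2* and *Ifi27*, *Iigp1* and *Igtp*, and *Xaf1* and *Oas2*. With INT-767 the RPKM of *Iigp1* was 51.1 ± 16.9 (SD, n = 4) and that of *Ifi27* 26.7 ± 3.91, so that their order turned. The order of levels depends on the length used, here all exons of a gene joined. This length was 5823 bases for *Iigp1*, whose longest transcript has 3121, and 1467 for *Ifi27*, whose longest has 977.

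**Figure D5:**
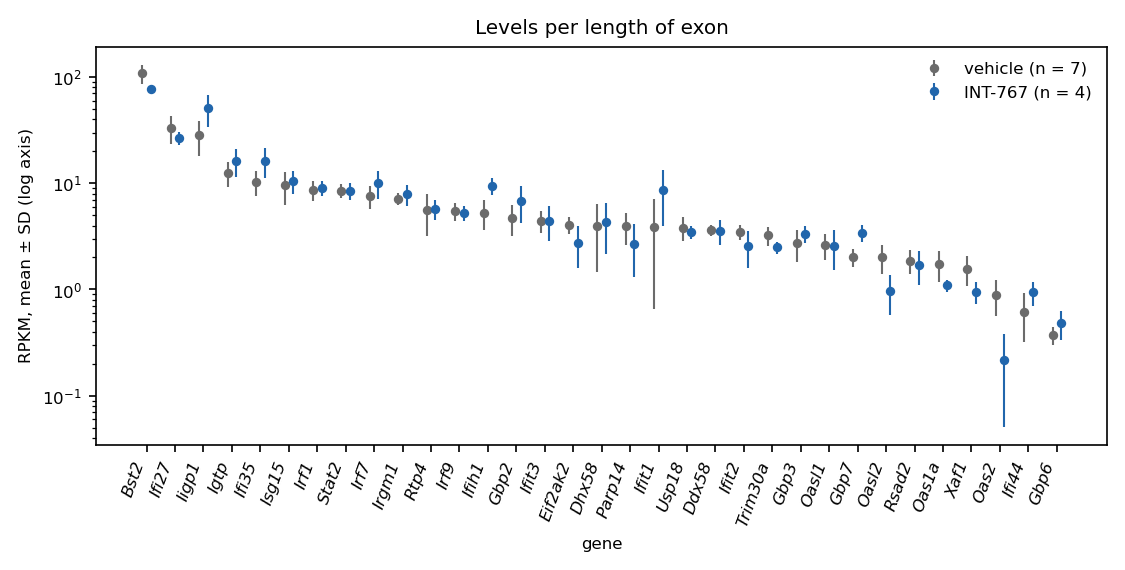
Mean RPKM with SD of each gene on a log axis, in order of the vehicle mean, for vehicle (grey) and INT-767 (blue). *Bst2* is the most abundant at 108 RPKM with vehicle and *Gbp6* the least at 0.372, and *Oas2* shows the widest gap between the groups.

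The vehicle mice alone differed considerably. The highest vehicle mouse exceeded the lowest by a median of 2.08-fold over the 33 members, and by as little as 1.40-fold for *Irgm1*. Vehicle 1 was the highest of the 7 for 15 members and vehicle 3 for 10, whereas vehicle 2 was the lowest for 11 and vehicle 4 for 9. Of the members, 22 were higher in vehicle 1 and 7, the libraries with a raised short-to-long difference, than in vehicle 2 to 6 (mean log2 values), led by *Ifit1* at 1.75, and 11 were lower, down to *Parp14* at -0.95. The same split within the treated group gave 21 higher and 12 lower in INT-767 2 and 4, and 32 of 33 members fell on the same side in both groups. The share of all tested genes that did so is not given here, so that this count is a description and no result about these genes. What part this difference between libraries has in the fold changes was tested only by leaving those libraries out and by the offset for GC content and length.

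Upstream of these genes, hardly any interferon was counted. Of 21 interferon ligand genes, 16 had 0 counts in all 11 mice, *Ifnb1* among them, which allows up to 0.175 to 0.422 CPM per mouse (3 counts of its total, counting error only). *Ifng* had 7 counts in 4 mice, *Ifnz* 2 counts, and *Ifnab* and *Ifna7* 1 count each. *Ifnk*, the interferon kappa gene, had 43 counts in vehicle and 9 in treated mice, at 0.513 ± 0.387 CPM (SD, n = 7) and a mean of 0.258. None reached the level needed for a test, so that no difference in a ligand was tested.

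All 6 receptor genes were tested and none was called, where 9.72% of all tested genes were. Their log2 fold changes were -0.38 for *Ifnar1* and -0.11 for *Ifnar2* (type I), -0.40 for *Ifngr1* and -0.02 for *Ifngr2* (type II), and -1.03 for *Ifnlr1* and -0.59 for *Il10rb* (interferon lambda), with *Il10rb* closest to the threshold (edgeR adjusted *p* = 0.0525). *Il10rb* was called lower between the mice without a raised short-to-long difference, where 12.1% of all tested genes were called (6.12% lower). Of the signalling genes, *Jak1* was at a log2 fold change of 0.15, *Jak2* at -0.08 and *Tyk2* at 0.06. None of the 9 tested genes of the JAK-STAT pathway and its brakes was called, in all mice or in those.

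The 16 genes that sense nucleic acids or induce interferon held 1 call (6.25%), a share below the 9.72% of all tested genes. *Tmem173*, which encodes the adaptor STING of DNA sensing, fell. It averaged 7.35 ± 1.45 CPM in vehicle mice (SD, n = 7) against 4.5 ± 0.557 in treated mice (SD, n = 4), and its log2 fold change was -0.71 (standard error 0.19, edgeR adjusted *p* = 0.0372). In the treated mice it was 4.57, 3.87, 5.21 and 4.35 CPM, below the lowest vehicle mouse at 5.37. The median over these 16 genes was -0.37, with 4 above 0 and 12 below. Of those above 0, *Irf3* was at 0.42 and not called (edgeR adjusted *p* = 0.0595), with all treated mice above all vehicle mice. Between the mice without a raised short-to-long difference *Tmem173* was not called, and 2 others were called lower, *Irf8*, a transcription factor of myeloid cells, and *Traf3*, an adaptor of the induction of interferon.

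Further interferon targets were counted in the same way. Of 37 other tested type I targets only *Lgals3bp* (2.7%, against 9.72% of all tested genes), a secreted glycoprotein gene, was called, at -0.77 (edgeR adjusted *p* = 0.0357), and their median was 0.07. Of 27 other tested type II targets 1 was called higher and 2 lower (11.1%), with a median of -0.09, so that the positive sign of all 8 type II members did not extend to this longer list, in which 10 genes lay above 0 and 17 below. In the mice without a raised short-to-long difference 15 of these 27 lay above 0, at a median of 0.05. The higher gene, *Gbp11*, was a further guanylate-binding protein. It had 1.56 ± 0.702 CPM (SD, n = 7) with vehicle and 5.40, 11.6, 8.73 and 7.19 CPM in the treated mice, all above the highest vehicle mouse at 2.76, and a log2 fold change of 2.35 (standard error 0.32, edgeR adjusted *p* = 0.00262). Sequence that *Gbp11* shares with its relatives was not measured, and its count is uncertain in that respect. Of the other GBPs tested in this list, *Gbp9* (-0.47), *Gbp8* (-0.34), *Gbp5* (-0.15) and *Gbp4* (-0.07) were below 0 and *Gbp10* (0.59) above it. None of these was called. The lower genes were *Ciita*, the master regulator of MHC class II genes, at -1.12 (edgeR adjusted *p* = 0.0153), and *Icam1*, an adhesion molecule for leukocytes, at -0.80 (edgeR adjusted *p* = 0.013). *Gbp11* and *Icam1* were again called between the mice without a raised short-to-long difference, and *Ciita* was not. Of 36 other type I targets tested in those mice *Samd9l* was called higher, and *Lgals3bp*, *Adar*, *Ifitm2* and *Rnf213* lower, a share of 13.9% near the 12.1% of all genes called there.

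Markers of the cell types that could carry these transcripts were counted beside the 9.72% of all tested genes that were called (4.68% lower). Hepatocyte markers were all tested and led by *Alb*, and their summed level went from 74800 ± 7440 CPM (SD, n = 7) to 107000 ± 17000 (SD, n = 4), with 1 of 10 (10.0%) called higher, *Ass1* of the urea cycle. *Alb* made up 58.5% of this sum, and the log2 fold changes of *Cyp2e1* (-1.0) and *Ttr* (-0.32) were below 0. Of 10 tested markers of monocyte-derived macrophages 4 (40.0%) were called lower, *Cd68*, *Cd9*, *Itgam* and *Cx3cr1*, and their sum, led by *Lyz2*, was 590 ± 109 and 370 ± 160 CPM. In treated mice 1 to 4 this sum was 347, 223, 313 and 597 CPM, against 460 to 717 with vehicle. Of 12 markers of stellate cells and myofibroblasts 3 (25.0%) were called lower, *Col1a1*, *Col1a2* and *Pdgfrb*, with a sum led by *Col3a1* of 865 ± 419 and 332 ± 103 CPM. *Csf3r* was called lower of 3 tested neutrophil markers, the other 2 of which, *S100a8* and *S100a9*, had log2 fold changes of 0.31 and 0.46 and were not called. *Muc1* was called lower of 7 cholangiocyte markers (14.3%). Between the mice without a raised short-to-long difference 3 hepatocyte markers were called higher, and 7 of 10 markers of monocyte-derived macrophages, 5 of 12 of stellate cells and myofibroblasts and again *Csf3r* and *Muc1* lower, where 12.1% of all genes were called (6.12% lower). *Cd9* and *Col1a1* were then not called.

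None of the tested markers of Kupffer cells (10), dendritic and plasmacytoid dendritic cells (6), T and NK cells (7), B and plasma cells (6) and sinusoidal endothelium (8) was called. Between the mice without a raised short-to-long difference 6 of 10 Kupffer cell markers were called lower (*C1qa*, *C1qb*, *C1qc*, *Cd5l*, *Folr2* and *Vsig4*), and 1 dendritic marker (*Ly6d*) and 1 endothelial marker (*Stab2*) as well, but again none of T and NK cells or of B and plasma cells. T and NK cells, the source of interferon gamma, had a summed level of only 13.8 ± 3.99 CPM (SD, n = 7) and 14.8 ± 4.39 (SD, n = 4), led by *Ccl5*. Dendritic markers summed to 203 ± 78.3 and 128 ± 56.2 CPM, of which *Ly6d* made up 60.5%. *Tcf4* averaged 53.8 CPM in vehicle mice. There *Siglech* (0.725), *Cd209a* (0.684), *Ccr9* (0.629), *Xcr1* (0.527) and *Klk1* (0.147) were too low to test. The sum is thus mostly *Ly6d* and *Tcf4*, and whether dendritic cells were their source was not tested. *Clec9a*, a marker of cross-presenting dendritic cells, had a log2 fold change of 0.12 and was not called. Kupffer cell markers, led by *Cd5l*, summed to 643 ± 124 and 582 ± 336, B and plasma cell markers, led by *Ighm*, to 104 ± 93.4 and 102 ± 48.9, and endothelial markers, led by *Stab1*, to 268 ± 86.9 and 184 ± 38.9. No marker of any of these lists was at 0 in all mice. The part of these cell types in the fold changes of the interferon-stimulated genes was not tested.

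Across the 7 vehicle mice, the genes outside all lists whose level followed the mean of the members most closely were *Golm1* (Pearson's r 0.975), *Farsa* (0.953), *Ndrg1* (0.952), *Marveld3* (0.950), *Dusp2* (0.948), *Clmp* (0.939), *Aif1l* (0.934), *Il33* (0.928), *Fam163a* (0.927) and *Ppp1r14a* (0.925). They are the highest of 13672 genes over only 7 mice, whose libraries also differ in the short-to-long difference, so that the values are a description. Of these 10, *Fam163a* was called lower with INT-767.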

How the data were processed

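Liver RNA of 11 mice was measured by bulk mRNA sequencing. Per the labels and the methods, the authors made stranded libraries, sequenced 75 cycles and aligned with STAR (2.5.2a in the methods, 2.4.0 in the submitters' processing notes) to GRCm38, Ensembl 84. Neither the counting program nor its strand setting is stated in the labels or methods. The authors deposited raw read counts per gene, with no normalization.

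The counts were compared with edgeR 4.0.16 in R 4.3.3, with TMM factors, filterByExpr (minimum count 10, minimum total 15), glmQLFit (robust) and glmQLFTest, and treatment as the only term. Adjusted *p* is Benjamini-Hochberg over 13880 genes. RPKM divides CPM by the union of a gene's exons in GENCODE M21, which also gave coordinates and shared sequence. Alternatives were other scalings and filters, DESeq2 1.42.0, limma-voom 3.58.1, a block for the mouse's number, an offset for GC content and length (lowess span 0.3), each mouse left out and a threshold of 0.01. The fits were tested on simulated data, with an outcome that is not reported here. No 2 libraries were copies. Promoters came from RefSeq, and 8 members had none (*Usp18*, *Dhx58*, *Oas2*, *Ifi27*, *Rtp4*, *Parp14*, *Gbp6*, *Iigp1*).

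The members and lists were chosen with earlier results of these data known. All members were named, with full values for called genes and the 4 regulators, and of other lists the called genes (the 5 with the smallest *p* where more), ligands with a count, receptors and core kinases. The other genes of these lists enter only the counts, and 1 further gene is not reported here. The further per-mouse values (*Ifit1*, *Iigp1*, *Bst2*, *Oasl2*, *Isg15*, *Dhx58*) were chosen after their values were seen. So were *Cyp2e1*, *Ttr*, *S100a8*, *S100a9*, *Clec9a*, *Tcf4*, the untested dendritic markers, *Irf3* and the uncalled GBPs among the other type II targets. A mouse's number was taken from its label, and mice of the same number are not described as paired.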

Additional observations from a re-analysis of the deposited data

Results flagged for a closer look

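Over the 33 members, the highest and the lowest mouse of each group were compared with the rest of the group, in 66 groups of values. A single value stood far from the others, the level of *Dhx58* in vehicle mouse 3, at 30.5 CPM against 7.92 to 14.8 in the other 6 vehicle mice. Chance alone would mark about 5% of groups, and 1.52% were marked here. *Dhx58* was not called with or without this mouse.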

How the results depend on the processing

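The 13880 tested genes gave 1349 calls and the 33 members 3. Over the fits that leave out each mouse in turn these counts ranged from 274 to 3276 and from 0 to 8, with 274 and 0 calls without INT-767 2, 573 and 0 without vehicle 6, and 3276 and 8 without vehicle 1. All genes gave 2811 calls with DESeq2 and 245 at a threshold of 0.01. The members gave 6 calls with DESeq2, 6 with the GC content and length offset (*Trim30a*, *Oasl2* and *Bst2* lower in addition), 5 with upper-quartile factors, 5 in the mice without a raised short-to-long difference (chosen after seeing the data) and 0 at a threshold of 0.01.

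The replicate block gave 0 calls among all genes and 0 among the members, alone and with the GC content and length offset. At an unadjusted *p* under 0.05 edgeR then had 1347 genes and 4 members, and 1681 and 7 with the offset. Nothing in the labels pairs mice of the same number. Across genes the deviations of same-numbered mice from their group means correlated at -0.71, 0.23, 0.18 and -0.50. These values cannot decide whether mice were paired, since the libraries also differ in the short-to-long difference. Under the block alone the log2 fold changes of *Ifih1*, *Gbp7* and *Oas2* were 0.86, 0.85 and -2.10, against 0.86, 0.76 and -1.99 without it.

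Of all calls 51.9% were higher, with library size only 24.4% and with upper-quartile factors 36.5%. Over the alternatives the median of the members, 0.00 in the main fit, ran from -0.20 to 0.11. That of type I members, -0.05 in the main fit, ran from -0.27 to -0.03, and that of type II members, 0.35 in the main fit, from 0.14 to 0.49. No call reversed its direction in any of the 22 alternative fits, and 22 members kept their sign in all of them. *Oas2* could not be tested with at least 10 counts in every mouse. Low counts limit *Oas2*, *Oas1a* and *Gbp6*, and the cause of the differences between settings was not tested.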
